A study of Homo sapiens with 8 samples.

Results

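The metastatic derivative M3-2 of the human prostate carcinoma line 22Rv1 was compared with the parental line, array by array and gene by gene. The comparison took the 2 arrays titled 22Rv1-M3-2 and the 2 arrays titled 22Rv1-Luc2, 4 of the 8 arrays of the series, and M3-2 was not averaged with the other metastatic line. 22Rv1 came from a xenograft that had regrown after castration of its host and is kept as a luminal, androgen-responsive carcinoma line. Parental 22Rv1-Luc2 cells were grown as a line, and 22Rv1-M3-2 was labelled a metastatic tumour obtained by propagating 22Rv1 in animals. The other groups, used here where M3-2 needed a second reference, were the metastatic line 22Rv1-M3-1 and a primary tumour derivative, 22Rv1-PT, each with 2 arrays. The name Luc2 is that of a firefly luciferase reporter, and the labels do not say whether the derivatives carry it. The host, the organ the metastasis was taken from, drug treatment, and whether M3-2 is a single clone or a pool are not stated by the labels used here. Each derivative is 1 line, so a difference between M3-2 and parental cells describes that line.

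Luminal prostate epithelium is marked by keratins 8 and 18, the pioneer factor FOXA1, the homeobox factor HOXB13 and a set of androgen-driven secreted proteases. Carcinoma cells can drift from this state, by taking on genes of other mucosal epithelia or of neuroendocrine cells, by altering the enzymes that inactivate androgens, and by changing the factors they secrete into the matrix. Passage through an animal selects among cells and exposes them to new surroundings, so a derivative is commonly profiled beside its parent to list what differs.

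The luminal label held on these arrays, with FOXA1 at a log2 intensity of 13.16 and 13.05 in parental cells and 12.83 and 12.90 in M3-2, and HOXB13 at 9.72 and 9.24 against 9.94 and 9.80. KLK3, which encodes prostate-specific antigen, stood below background on every array, between 6.06 and 6.39. The androgen receptor gene was not analysed here. Markers of endothelium and lung epithelium were at background throughout, with 0 of 6 and 0 of 4 above it on 2 or more arrays. Leukocyte markers were above it in 3 of 6, with CD68, a lysosomal protein, at 10.75 and 10.47 in parental cells and 10.11 and 10.37 in M3-2, while PTPRC and CD3D, which define leukocytes and T cells, were at background on all 8 arrays. Hepatocyte markers were above it in 3 of 6, ALB being bright in every group, and osteoblast markers, both of them dim, in 2 of 4. Of 12 fibroblast and smooth muscle markers, 4 were above background on both parental arrays and 5 on both M3-2 arrays. Their summed log2 intensity was 78.8 to 79.0 in parental cells and 84.6 to 84.7 in M3-2. LUM alone accounted for 4.80 of this difference, and 7 of the 12 markers were at background on all 8 arrays. The part of other cells in the results was not tested.

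Each array had between 20306 and 20328 probes above background, a log2 intensity of 6.55, and 12244 genes were tested. The deposited arrays share a common distribution, so near-equal probe numbers follow from it and do not measure array quality. The 2 parental arrays differed more from each other (root mean square SD 0.218, correlation across genes 0.987) than the 2 M3-2 arrays (0.160 and 0.993). M3-2 lay closest to M3-1, at a root mean square difference of 0.235 between group means, and further from the primary tumour derivative (0.336) and parental cells (0.394). At an adjusted p below 0.05, M3-2 differed from parental cells in 1496 genes, 12.2% of those tested, of which 723 were higher (5.9%) and 773 lower (6.31%). The difference was called and at least 2-fold for 174 higher and 191 lower genes, together 2.98%. The shares of 5.9% and 6.31% are the background against which the count of each gene list is to be read. Leaving out 1 M3-2 array, replicate 1, reduced the count to 929. The p-values rest on the spread between arrays of the same group, pooled over all 4 groups and with a prior from all genes. No label ties the 2 arrays of a group to separate cultures or animals, so this spread may be that of technical replicates. A fit to only the arrays compared called 996 genes. In bulk RNA, fewer cells of a kind and less RNA per cell cannot be told apart.

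**Figure D1:**
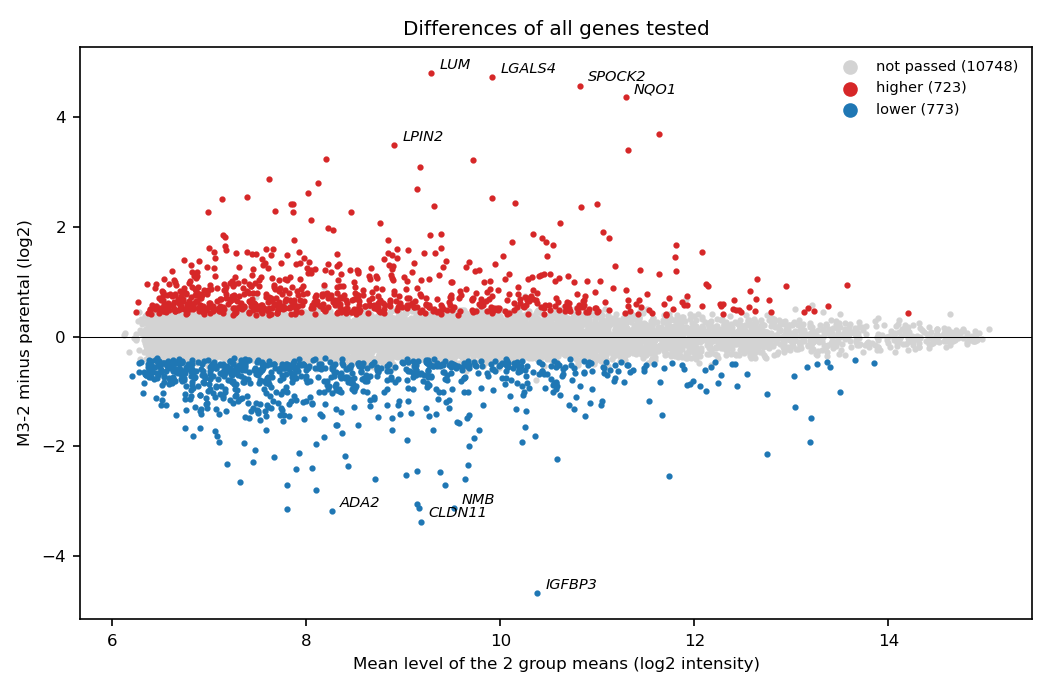
Difference between M3-2 and parental cells (log2, vertical axis) against the mean of the 2 group means (log2 intensity, horizontal axis), 1 point for each of 12244 genes. Red points are the 723 genes called higher, blue points the 773 called lower, and grey points did not pass. LUM and LGALS4 reach the highest differences and IGFBP3 the lowest.

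The genes that rose furthest encode secreted and matrix proteins, a lectin and a detoxifying enzyme. LUM, encoding the collagen-binding proteoglycan lumican, read 6.55 and 7.21 on the parental arrays and 11.52 and 11.85 on the M3-2 arrays. That is a difference of 4.80 ± 0.24 (log2, SE of the limma fit to all 8 arrays, n = 2 and 2, adjusted p = 1.27e-08), or 28.0-fold. LUM was near background in parental cells and bright in M3-2. SPOCK2, a testican proteoglycan of the extracellular matrix, went from 8.76 and 8.30 to 12.99 and 13.23, a difference of 4.58 ± 0.16 (adjusted p = 4.82e-10). LGALS4, galectin-4, a lectin of intestinal epithelium, went from 7.61 and 7.49 to 12.15 and 12.41, which is 4.73 ± 0.13 or 26.5-fold (adjusted p = 9.49e-11). For each of these genes the highest parental array lay more than 4 log2 units under the lowest M3-2 array. NQO1, a quinone reductase that is a classical target of the stress regulator NRF2, read 9.12 and 9.11 in parental cells and 13.46 and 13.48 in M3-2 (4.36 ± 0.12, 20.5-fold). S100P, a calcium-binding protein, read 9.88 and 9.70 against 13.47 and 13.49 (3.69 ± 0.12, 12.9-fold).

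Signalling genes and a phosphatase made up most of the rest of the 14 largest rises. LPIN2, a phosphatidate phosphatase that makes diacylglycerol, read 7.20 and 7.12 in parental cells and 10.81 and 10.48 in M3-2 (3.49 ± 0.15, 11.2-fold). PPP1R1B, the dopamine-regulated phosphatase inhibitor DARPP-32, read 9.75 and 9.48 against 13.17 and 12.87 (3.41 ± 0.14). P2RY1, an ADP receptor, read 6.58 and 6.60 against 9.65 and 10.002 (3.24 ± 0.15), so it was barely above background before. CEACAM6, a cell adhesion molecule of mucosal epithelium, rose by 3.21 ± 0.14 and WIF1, a secreted inhibitor of WNT ligands, by 3.08 ± 0.12. PLA2G4C, a phospholipase A2, rose by 2.80, KCNJ8, a pore subunit of ATP-sensitive potassium channels, by 2.70, and NBL1, a secreted BMP antagonist, by 2.61. GSTA1, a glutathione transferase, was below background on both parental arrays (6.12 and 6.11) and read 8.40 and 8.91 in M3-2, at least 4.31-fold higher.

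The largest fall was in IGFBP3, which encodes the main carrier of insulin-like growth factors in serum. It read 12.91 and 12.52 on the parental arrays and 8.08 and 8.01 on the M3-2 arrays, a difference of -4.67 ± 0.16 (adjusted p = 6.07e-10), or 25.5-fold lower. CLDN11, a tight junction claudin, went from 10.74 and 10.99 to 7.44 and 7.55 (-3.37 ± 0.15). ADA2, a secreted adenosine deaminase, went from 10.02 and 9.69 to 6.80 and 6.55 (-3.18 ± 0.14), the lower M3-2 array standing at background. CFC1, encoding the NODAL co-receptor CRYPTIC, read 9.50 and 9.26 in parental cells and was below background on both M3-2 arrays, at least 7.10-fold lower. NMB, the precursor of the peptide hormone neuromedin B, went from 11.25 and 10.92 to 8.04 and 7.86 (-3.13 ± 0.14). ANGPTL4, a secreted inhibitor of lipoprotein lipase, went from 10.96 and 10.48 to 7.63 and 7.57 (-3.12 ± 0.16). In none of these 6 genes did the parental and M3-2 arrays come within 2 log2 units of each other.

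CRIP1, a small LIM-domain protein, fell by 3.05, PNMA2, a neuronal antigen, fell by 2.79, and COLEC12, a scavenger receptor with a collagen-like stem, fell by 2.58. BEX1, a small adaptor of neural and endocrine cells, was among the brightest genes of parental cells at 13.14 and 12.88 and still read 10.46 and 10.50 in M3-2 (-2.53 ± 0.14). CNTNAP2, a neuronal adhesion protein, was at least 6.05-fold lower and DNAJA4, a cytosolic co-chaperone, at least 4.27-fold lower, both below background in M3-2. UGT2B17 and UGT2B10, of the UGT2B enzyme family, completed the 14 largest falls, with differences of -2.71 and -2.59. The arrays of the 2 groups did not overlap for 43.4% of all genes tested, and the choice of these 28 genes required it. Each of the 28 genes named up to here as a largest rise or fall was called under every alternative setting of the fit.

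**Figure D2:**
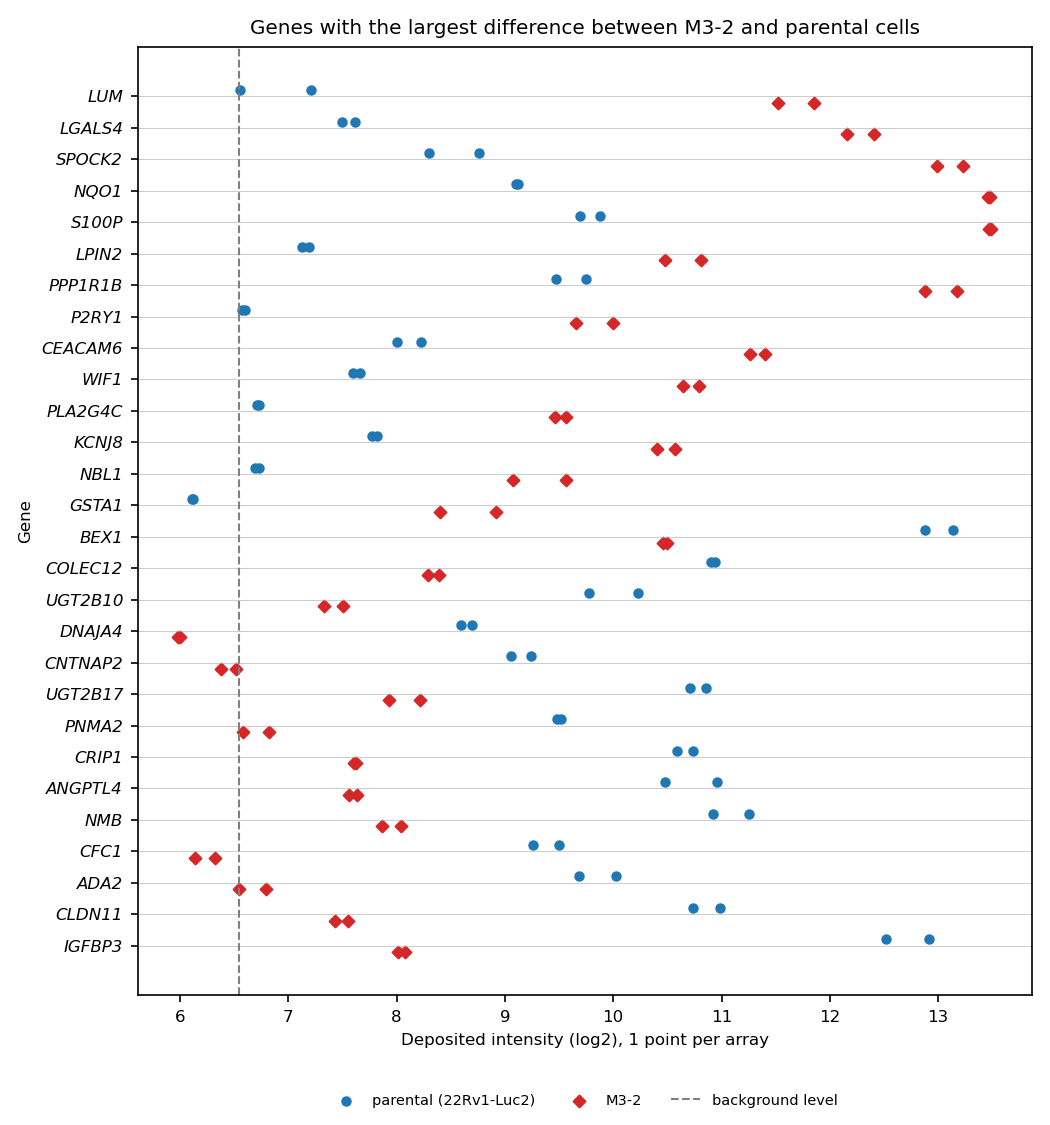
Deposited log2 intensity (horizontal axis) of the 14 genes with the largest rise and the 14 with the largest fall in M3-2 (vertical axis, ordered by the difference), 1 point per array, blue for the 2 parental arrays and red for the 2 M3-2 arrays. The dashed line is the background level of 6.55. The colours do not overlap for any of the 28 genes.

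Genes of gastrointestinal mucosa were often higher in M3-2. Of 17 tested members of a list of such genes 8 were higher (47.1%) and 2 lower, against 5.9% and 6.31% of all genes, and the list's median difference was 0.37 (all genes -0.0045). Beside LGALS4 and CEACAM6, REG4, a secreted lectin of intestinal endocrine and goblet cells, read 6.45 and 7.01 in parental cells and 8.66 and 9.34 in M3-2 (2.27 ± 0.22, 4.82-fold). SPINK4, a protease inhibitor of goblet cells, was below background in parental cells, at 6.26 and 6.42, and read 8.10 and 7.89 in M3-2, at least 2.72-fold higher. MUC13, a membrane mucin, rose by 1.14, GPX2, the gastrointestinal glutathione peroxidase, by 1.08, and AGR2, a disulfide isomerase needed for mucin folding, by 1.02. SPINK1, a secreted trypsin inhibitor, moved the other way, from 13.39 and 14.24 to 11.44 and 11.90 (-2.14 ± 0.23, adjusted p = 2.27e-05). It remained one of the brightest genes of the list in both groups.

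Keratins of simple epithelium were higher as well, with some factors of epithelial identity. Of 10 keratins and mucins tested, 6 were higher and 0 lower, with a median difference of 0.53. KRT19 read 10.53 and 10.55 in parental cells and 12.01 and 11.64 in M3-2 (1.29 ± 0.14), KRT18 8.25 and 8.07 against 9.18 and 9.35 (1.11 ± 0.13), and KRT8 10.40 and 10.13 against 11.23 and 11.28 (0.99 ± 0.13). All were clearly expressed in both groups. Of 20 tested lineage transcription factors 8 were higher and 1 lower, but the count of higher genes rested on single arrays. Leaving out M3-2 replicate 1 gave 3, and leaving out M3-2 replicate 2 or parental replicate 2 gave 5. KLF5, a factor of proliferating epithelium, rose by 1.15 ± 0.16 and EHF, an ETS factor of glandular epithelium, by 1.19 ± 0.23, a call that was lost without M3-2 replicate 2. The exception in direction was GATA3, a factor of luminal epithelium in breast and urothelium, which read 8.24 and 7.88 in parental cells and was below background in M3-2, at least 2.84-fold lower. Outside that list, ELF5, an ETS factor of secretory epithelium, read 8.07 and 8.58 in parental cells and 6.38 and 6.40 in M3-2, at least 3.42-fold lower.

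More epithelial adhesion genes were higher than lower, though 17 of the 24 tested did not pass. Of these 24 genes 6 were higher (25%, against 5.9% of all genes) and 1 lower (4.17%, against 6.31%), with a median of 0.25. LAMB3, a laminin chain, rose by 0.94, and SPINT2, an inhibitor of membrane serine proteases, by 0.93. CDH1, which encodes E-cadherin, read 11.73 and 12.002 in parental cells and 11.69 and 11.70 in M3-2 and did not pass (adjusted p = 0.549). EPCAM did not pass either, at 12.38 and 12.30 against 12.87 and 12.58 (adjusted p = 0.0964), though it was called when the probes of a gene were averaged. CD24, a surface glycoprotein, fell by 1.45 ± 0.14. Of 16 tested tight junction and connexin genes 1 was higher (6.25%, about the 5.9% of all genes) and 2 lower (12.5%, against 6.31%). CLDN1, a claudin of barrier epithelia, rose by 1.50 while CLDN11 and the gap junction gene GJA1 fell. GJA1 went from 8.69 and 9.51 to 6.75 and 6.63 (-2.41 ± 0.21).

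Of 10 tested mesenchymal genes 4 were lower (40.0%, against 6.31% of all genes) and 0 higher (against 5.9%), and 6 did not pass. CDH2, which encodes N-cadherin, went from 10.44 and 10.46 to 9.14 and 9.27 (-1.24 ± 0.12, adjusted p = 8.99e-06). TNC, the matrix protein tenascin-C, fell by 1.15 and ITGA5, the fibronectin receptor subunit, by 1.36. SNAI2, a repressor of epithelial genes, passed narrowly, at an adjusted p of 0.0476 that was lost without any one of 7 of the 8 arrays. VIM, which encodes vimentin, read 9.37 and 9.23 against 9.40 and 9.41 and did not pass (adjusted p = 0.708). Of the fibroblast markers, LUM, DCN and TAGLN were higher. ACTA2, smooth muscle actin, was lower, at 8.63 and 8.46 against 7.95 and 8.14, a call that was lost in 5 of 19 alternative settings, among them without parental replicate 1 and without M3-2 replicate 1. By contrast, the fibroblast collagens COL1A2 and COL3A1, the receptor PDGFRB and the surface antigens FAP and THY1 were at background on all 8 arrays. COL1A1 read 6.85 and 6.77 in parental cells and 6.74 and 6.73 in M3-2.

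Of 31 tested matrix genes 5 were higher (16.1%, against 5.9% of all genes). The 3 that were lower (9.68%) were near the 6.31% of all genes, and the median was 0.01. DCN, encoding the proteoglycan decorin, was below background in parental cells and read 7.27 and 7.05 in M3-2, at least 1.52-fold higher. VCAN, encoding versican, fell by 1.23 ± 0.13. EFEMP1, which encodes fibulin-3, read 7.34 and 7.51 in parental cells, 10.44 and 10.41 in the primary tumour derivative and 6.08 and 6.10 in M3-2. M3-2 was thus at least 1.83-fold below parental cells while the primary tumour derivative was the brightest group. Without parental replicate 2, 5 matrix genes were lower. Among proteases and their inhibitors 6 of 22 were higher and 3 lower, with 3 higher without M3-2 replicate 1. SERPINE2, an inhibitor of plasminogen activators and thrombin, went from 9.36 and 9.14 to 11.09 and 10.87 (1.73 ± 0.13), SERPINB5, or maspin, from 6.75 and 6.91 to 8.07 and 8.43 (1.42 ± 0.15), and the broad protease inhibitor A2M from 7.38 and 7.30 to 8.76 and 8.66 (1.37 ± 0.13). The protease cathepsin H, encoded by CTSH, fell by 1.19 ± 0.14.

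Genes of androgen response split. Of 22 androgen targets 3 were higher and 5 lower, a share of 13.6% higher and 22.7% lower, and without either M3-2 array 3 were lower. TSC22D3, a leucine zipper protein also driven by glucocorticoids, went from 8.94 and 8.92 to 11.47 and 11.27 (2.44 ± 0.13, 5.44-fold). SGK1, a kinase induced by several steroid receptors, was at or below background in parental cells and read 7.38 and 7.16 in M3-2, at least 1.65-fold higher. In the other direction, PMEPA1 fell by 1.44 ± 0.16, TMPRSS2, a membrane protease, by 0.91 ± 0.15, and FKBP5, a co-chaperone of steroid receptors, by 0.81 ± 0.14. KLK2, the kallikrein next to KLK3, read 7.23 and 7.26 against 7.15 and 7.36 and did not pass (adjusted p = 0.976). The differentiation antigen FOLH1, prostate-specific membrane antigen, was higher in M3-2, at 9.005 and 9.57 against 11.07 and 10.46 (1.48 ± 0.20), and MSMB, a secreted prostate protein, was at least 1.79-fold higher.

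Genes of the UGT2B family, some of whose enzymes attach glucuronic acid to androgens, were lower, with 5 of 6 measured called. Of 15 tested genes of steroid metabolism 6 were lower and 0 higher, 40.0% against 6.31% of all genes. UGT2B17 read 10.71 and 10.85 in parental cells and 7.93 and 8.22 in M3-2 (-2.71 ± 0.14, 6.53-fold lower), UGT2B15 10.21 and 10.53 against 7.95 and 7.89 (5.46-fold lower), and UGT2B11 10.26 and 10.96 against 8.03 and 8.26 (5.51-fold lower). UGT2B28 fell by 1.11, and UGT2B4, at -0.28, did not pass. These genes are close paralogues in sequence, so their probes may share signal and are not independent of each other. AKR1C2, a ketosteroid reductase that inactivates dihydrotestosterone, fell by 1.17 ± 0.14, from 11.83 and 11.43 to 10.45 and 10.47.

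Among neuroendocrine and neuronal genes more were lower than higher. Of 23 tested granins and secretory vesicle genes 12 were lower (52.2%) and 4 higher, with a median of -0.44, and without M3-2 replicate 1 the number higher was 2. CHGB, a granin of dense-core vesicles, went from 8.72 and 8.73 to 7.19 and 7.26 (-1.50 ± 0.12). SNAP25, a vesicle fusion protein, fell by 1.61 ± 0.13, SYP, which encodes synaptophysin, by 0.81 ± 0.15, and ENO2, the neuronal enolase, by 0.74 ± 0.13. DDC, the enzyme that makes dopamine and serotonin, went from 9.37 and 9.13 to 6.81 and 6.91 (-2.39 ± 0.15, 5.23-fold lower). CHGA was dim, at 6.91 and 6.98 in parental cells, and its call (adjusted p = 0.0425) was lost in 10 of 18 alternative settings. The 4 members that rose were CALCA, the calcitonin gene, and CGA, the common subunit of the glycoprotein hormones, with differences of 1.34 and 1.03, and CPE and SCGN, with 0.63 and 0.46, all 4 chosen after their values were seen. Among 17 genes of neuronal structure 8 were lower (47.1%), 2 higher, or 1 without M3-2 replicate 2, and 7 did not pass. NRCAM, a neuronal adhesion molecule, fell by 2.19 ± 0.15 and TUBB2B, a neuronal tubulin, by 1.01 ± 0.13, while MAP1B, a microtubule-associated protein, rose by 1.35 ± 0.16.

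In the insulin-like growth factor axis, IGFBP3 was not the only gene to fall. Of 16 tested members 6 were lower (37.5%) and 2 higher, and none was higher without M3-2 replicate 1. IRS1, the docking protein of the receptor, fell by 1.33 ± 0.13, from 8.13 and 8.20 to 6.90 and 6.76. HTRA1, a protease that cleaves binding proteins, fell by 0.90. IGFBP5 and the ligand IGF1 fell from levels just above background to below it, at least 1.40-fold and at least 1.08-fold lower. IGF1 had another probe, which did not exceed background on at least 2 arrays. When probes below background were kept, that probe was chosen as the brighter on average. Its difference was 0.22, in the opposite direction.

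WNT genes were lower in 7 of 24 (29.2%, against 6.31% of all genes) and higher in 2 (8.33%, against 5.9%). WIF1 was the larger of the 2 rises, from 7.66 and 7.60 to 10.79 and 10.64. The receptor FZD8 fell by 1.30 ± 0.13 and NKD2, an inhibitor of Dishevelled, by 1.14 ± 0.13, while the receptor FZD4 rose by 0.71 ± 0.12. MYC, a transcription factor and WNT target, fell by 0.51 ± 0.13 (adjusted p = 0.0215), from 12.27 and 11.997 to 11.72 and 11.52. The MYC call was lost in 8 of 19 alternative settings, among them without parental replicate 1, either M3-1 array or M3-2 replicate 2. The number of lower WNT genes was 4 without parental replicate 1, either M3-1 array or M3-2 replicate 1. Of 28 TGF-beta and BMP genes 8 were lower and 2 higher (1 higher without either M3-1 array or either M3-2 array). TGFB3, a ligand, fell by 1.46 ± 0.13, BMP2, another ligand, by 1.17 ± 0.13, and ID3, an inhibitor of helix-loop-helix factors induced by BMPs, by 1.04 ± 0.15. BAMBI, a decoy receptor without kinase activity, rose from 9.14 and 8.85 to 10.38 and 10.34 (1.37 ± 0.13). HGF, a motility factor, fell by 1.00 ± 0.14 and MST1, its structural relative, by 1.24 ± 0.13.

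Stress genes gave a mixed account. NQO1 rose far more than any other of the 20 tested NRF2 targets, of which 6 were higher and 2 lower. EPHX1, an epoxide hydrolase, rose by 1.22 ± 0.13 and ME1, which makes NADPH, by 0.91 ± 0.15. GCLC, the catalytic subunit of glutathione synthesis, fell from 9.96 and 10.29 to 9.11 and 9.12 (-1.01 ± 0.14), and HMOX1 did not pass, at 6.67 and 6.71 against 6.99 and 6.97 (adjusted p = 0.226). Genes lower in this list numbered 1 without any single array other than parental replicate 2.

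Genes that the transcription factor ATF4 turns on when amino acids run short were higher in 13 of 36 (36.1%) and lower in 2, with a median of 0.38. The number higher was 8 without M3-2 replicate 2. STC2, a secreted glycoprotein, went from 8.45 and 8.44 to 10.02 and 9.93 (1.52 ± 0.13), DDIT4, an inhibitor of mTORC1, from 10.004 and 9.71 to 10.999 and 10.95 (1.12 ± 0.14), and CHAC1, which degrades glutathione, from below background to 7.05 and 6.93, at least 1.36-fold higher. Of the serine and asparagine synthesis genes, PHGDH rose by 0.57, PSAT1 by 0.51 and ASNS by 0.45, and of the neutral amino acid carriers, SLC1A5 rose by 0.72 and SLC1A4 by 0.61. These 5 genes, with small differences, were picked by function after their values were seen. The genes that fell encode the light and heavy chains of 1 transporter of large neutral amino acids. SLC7A5 went from 14.20 and 14.09 to 12.09 and 12.36 (-1.92 ± 0.13, 3.78-fold lower) and SLC3A2 from 12.55 and 12.21 to 10.93 and 10.98 (-1.43 ± 0.14).

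The amino acid response element, to which ATF4 binds with a C/EBP partner, was sought as TGATGNAA on both strands in RefSeq promoters (GRCh38.p14), taken from 250 bases before to 50 after a start site. It was present in 3.62% of 35116 promoters and in at least 1 promoter of 2.81% of the 9798 tested genes that had an entry. In the ATF4 list 31 genes had an entry and 14 of them (45.2%) held a match. The match was found in 5 of 12 members that were higher, 1 of 2 that were lower and 8 of 17 that did not pass, so it was about as frequent among members that moved as among those that did not. The 250 bases before the start site are shown for 4 members with a match there, the match in capitals: ASNS (chr7:97872409-97872658, minus strand), CHAC1 (chr15:40953221-40953470, plus strand) and SLC1A5 (chr19:46784815-46785064, minus strand), which were higher in M3-2, and CEBPG (chr19:33373863-33374112, plus strand), whose difference was -0.06.
ASNS: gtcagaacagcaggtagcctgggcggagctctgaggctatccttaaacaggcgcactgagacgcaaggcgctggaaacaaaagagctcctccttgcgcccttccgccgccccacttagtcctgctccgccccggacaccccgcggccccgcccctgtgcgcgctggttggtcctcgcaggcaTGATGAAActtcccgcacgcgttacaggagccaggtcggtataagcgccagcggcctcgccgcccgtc
CHAC1: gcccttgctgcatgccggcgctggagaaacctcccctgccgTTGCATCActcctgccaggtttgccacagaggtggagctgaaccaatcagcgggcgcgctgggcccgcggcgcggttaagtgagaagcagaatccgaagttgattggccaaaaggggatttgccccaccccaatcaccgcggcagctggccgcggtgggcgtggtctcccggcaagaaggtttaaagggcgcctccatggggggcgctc
SLC1A5: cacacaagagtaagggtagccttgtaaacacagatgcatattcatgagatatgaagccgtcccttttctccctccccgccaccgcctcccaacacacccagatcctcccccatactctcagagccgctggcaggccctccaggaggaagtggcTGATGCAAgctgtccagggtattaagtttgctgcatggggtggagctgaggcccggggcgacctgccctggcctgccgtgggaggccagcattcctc
CEBPG: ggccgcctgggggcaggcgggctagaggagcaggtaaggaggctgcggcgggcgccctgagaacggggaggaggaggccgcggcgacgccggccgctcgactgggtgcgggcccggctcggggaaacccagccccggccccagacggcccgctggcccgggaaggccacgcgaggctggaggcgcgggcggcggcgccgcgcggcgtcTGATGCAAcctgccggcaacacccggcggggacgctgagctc
All higher members with a match wholly in the 250 bases before the start are shown. AARS1, ATF3, GARS1 and IARS1 also had one there, did not pass and are not shown. The match was in 1 of 2 promoters of ASNS, 1 of 2 of CEBPG and 1 of 3 of SLC1A5. In CHAC1 the match lies on the opposite strand. Matches begin 68 bases before the start in ASNS, 209 in CHAC1, 97 in SLC1A5 and 42 in CEBPG. A match is a description of these letters and not of binding.

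Globin transcripts, which 22Rv1 cells carried at a clear level, were lower in M3-2. Of 7 tested globin and erythroid genes 6 were lower and 0 higher, with a median of -1.08. HBA2, an alpha-globin gene, read 10.84 and 10.52 in parental cells and 8.59 and 8.77 in M3-2, 4-fold lower (SE 0.15 on the log2 scale). HBA1 read 9.23 and 8.96 against 7.19 and 7.34 (-1.83 ± 0.13), and HBQ1, the theta-globin gene of the same cluster, 10.86 and 10.41 against 9.46 and 9.67 (-1.08 ± 0.15). HBA1 and HBA2 are nearly identical, so their probes may share signal. In the run of 30 tested genes from NPRL3 to HAGHL on chromosome 16, which holds the alpha-globin cluster, 11 were lower and 0 higher, and the median difference was -0.26. Over the run the median difference from the parental mean was -0.27 and -0.30 on the 2 M3-2 arrays. By the same measure the parental arrays lay 0.15 above and 0.15 below that mean. The median was -0.30 in M3-1 and -0.06 in the primary tumour derivative, each taken against the same parental arrays. Over chromosome 16 as a whole 4.07% of 565 genes were higher and 7.61% lower, against 5.9% and 6.31% of all genes. The run from NPRL3 to HAGHL was chosen after the data were seen, as that with the lowest median on its chromosome. Gene order was taken from RefSeq (GRCh38.p14).

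**Figure D3:**
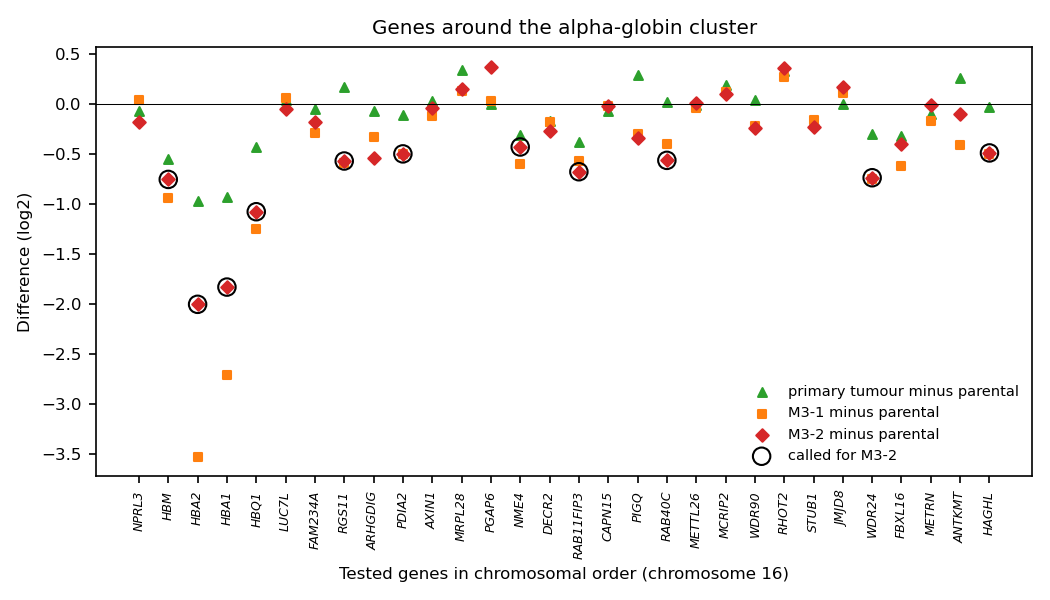
Difference from parental cells (log2, vertical axis) of 30 tested genes in chromosomal order around the alpha-globin cluster on chromosome 16 (horizontal axis), for the primary tumour derivative (green triangles), M3-1 (orange squares) and M3-2 (red diamonds), which share the parental arrays. Circles mark the 11 genes called lower in M3-2. HBA2 and HBA1 lie lowest in all 3 derivatives, and lower in M3-1 than in M3-2.

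A run of 30 tested genes on chromosome 12, from KRR1 to BTG1, had 10 genes higher, 0 lower and a median of 0.25. Over the run the median difference from the parental mean was 0.35 and 0.18 on the 2 M3-2 arrays. By the same measure the parental arrays lay 0.11 below and 0.11 above that mean. The run holds LUM, DCN and KERA, neighbouring genes of small leucine-rich proteoglycans, of which KERA was not called, at -0.24 (adjusted p = 0.260). PHLDA1, a regulator of growth and death, was higher by 1.23, BTG1, an antiproliferative gene, by 1.05, KITLG, the ligand of the KIT receptor, by 1.03, and OSBPL8, a lipid transfer protein, by 1.01. The same run had a median of 0.17 in M3-1 and -0.27 in the primary tumour derivative against the same parental arrays. Over chromosome 12 as a whole 7.96% of 653 genes were higher and 4.44% lower. The run and the genes named in it were chosen after the data were seen.

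Immediate early genes were higher in 7 of 21 and lower in 3, the latter count being 1 without either M3-2 array. IER5L, a member of the immediate early response family, went from 8.25 and 7.99 to 10.71 and 10.30 (2.39 ± 0.16, 5.23-fold). KLF4, a zinc finger factor of differentiating epithelium, rose by 1.31 ± 0.16, IER3 by 1.29 ± 0.14 and DUSP1, a phosphatase of MAP kinases, by 0.90 ± 0.13. Lipid genes were lower in 8 of 30 (26.7%, against 6.31% of all genes) and higher in 3 (10%, against 5.9%). ACSL1, which activates fatty acids, went from 8.40 and 8.52 to 10.29 and 10.35 (1.86 ± 0.13), and FABP7, a fatty acid carrier, was at least 2.87-fold higher with a wide spread between its M3-2 arrays, at 7.64 and 8.50. PLAAT3, a phospholipase, fell by 1.81 ± 0.14. Of 21 cholesterol synthesis genes 3 were lower and 0 higher, with a median of -0.33. That number was 5 without parental replicate 1 and 6 without parental replicate 2. LSS, lanosterol synthase, fell by 1.16 ± 0.15 and HMGCS1 by 0.83 ± 0.16.

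Genes of oxidative phosphorylation did not pass the test, and cell cycle genes were called at shares near those of all genes. Of 36 tested subunits of oxidative phosphorylation 0 were called by limma in either direction, with a median of -0.01 and 1 at an unadjusted p below 0.05. Without parental replicate 2, 3 were higher, and without parental replicate 1, 2 were lower. Of 47 cell cycle genes 1 was higher (2.13%, against 5.9% of all genes) and 4 lower (8.51%, against 6.31%), and leaving out M3-2 replicate 1 left 0 and 1. MKI67, the proliferation antigen, read 8.24 and 8.32 in parental cells and 8.09 and 8.30 in M3-2 and did not pass (adjusted p = 0.792). CDKN1B, the cyclin-dependent kinase inhibitor p27, was the cell cycle gene with the largest difference, at -0.89 ± 0.16. Of 35 hypoxia and glycolysis genes 5 were lower (14.3%, against 6.31% of all genes) and 2 higher (5.71%, about the 5.9% of all genes). Without parental replicate 2 or either M3-2 array 1 was higher. BNIP3, a mitophagy receptor, fell by 1.36 ± 0.14, beside ANGPTL4, and CA12, a carbonic anhydrase, by 1.01 ± 0.15.

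**Figure D4:**
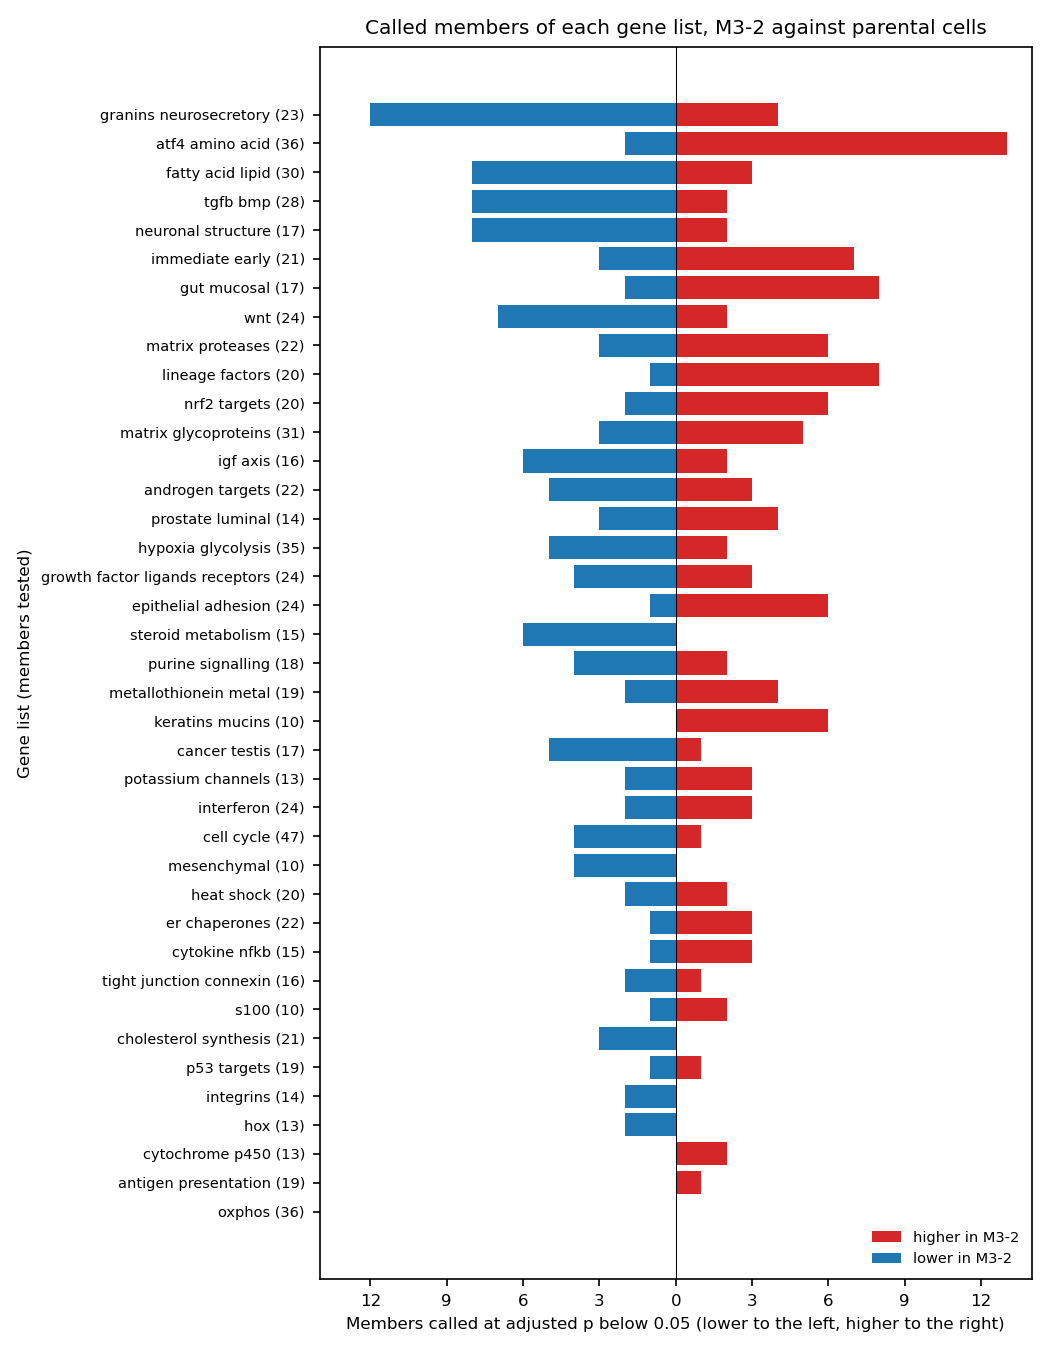
Number of members called at an adjusted p below 0.05 (horizontal axis, lower in M3-2 to the left in blue, higher to the right in red) in each gene list with 10 or more tested members (vertical axis, members tested in brackets). Lists differ in size, so counts are to be read beside shares (all genes 5.9% higher and 6.31% lower). Granins have the most lower members, 12 of 23 (52.2%). The ATF4 list has the most higher, 13 of 36 (36.1%), but by share keratins and mucins lead, with 6 of 10 (60%). Oxidative phosphorylation has 0 of 36 in either direction.

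The comparison of M3-2 with M3-1 showed which of these differences M3-2 carried beyond the other metastatic line. Because both lines are measured against the same parental arrays, the direct difference between their arrays is the test of whether they depart from parental cells by different amounts. It was called for 302 genes, 2.47% of those tested, with 173 higher and 129 lower in M3-2. The count was 94 to 492 when single arrays were left out, with 94 without M3-1 replicate 2, 100 without M3-1 replicate 1, 136 without M3-2 replicate 1 and 492 without either parental array. Of the 28 largest differences from parental cells 13 were also called against M3-1, and 26 were called against the primary tumour derivative, where 9.25% of all genes were called. The same M3-2 arrays served to pick the 28 genes and enter both comparisons, so these counts are descriptions and not independent support.

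LPIN2 and CEACAM6 were high in M3-2 and at the parental level elsewhere. LPIN2 read 10.81 and 10.48 in M3-2, 7.33 and 7.28 in M3-1, and 7.53 and 7.24 in the primary tumour derivative. Its difference from M3-1 was 3.34 ± 0.15 (adjusted p = 2.79e-08). CEACAM6 read 11.40 and 11.26 in M3-2 against 7.86 and 7.65 in M3-1, a difference of 3.57 ± 0.14 (adjusted p = 1.03e-08). For both genes the M3-1 arrays lay within 1 log2 unit of every parental array. Of the 17 mucosal genes 6 were higher in M3-2 than in M3-1 and 1 lower, against 1.41% and 1.05% of all genes. REG4 was higher by 2.28, AGR2 by 2.19, SPINK4 by 1.91 and LGALS4 by 1.20. LGALS4 was already high in M3-1, at 11.14 and 11.02, whereas REG4 and SPINK4 were not, at 6.85 and 6.59 and at 6.09 and 6.08. AGR2 differed from both sides, with 9.22 and 9.21 in M3-1 under the parental 9.99 and 10.78.

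Other genes rose in both metastatic lines and further in M3-2. SPOCK2 was higher than in M3-1 by 1.46, WIF1 by 1.55, PPP1R1B by 1.11, NBL1 by 1.29 and GSTA1 by 1.29. KCNG1, a modifier subunit of voltage-gated potassium channels, read 9.21 and 8.90 in M3-2, 7.42 and 7.58 in M3-1 and 6.68 and 6.59 in parental cells. KRT19 and S100A6 were not called between M3-1 and parental cells (-0.11 and -0.43) and were higher in M3-2 than in M3-1 by 1.39 and 1.54. SERPINB5 and SERPINE2 were higher than in M3-1 by 1.36 and 1.11. LUM, NQO1, S100P, P2RY1, KCNJ8 and PLA2G4C were not called between the metastatic lines, with differences of 0.40, 0.05, 0.47, 0.19, 0.13 and 0.02.

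ELF5 separated M3-2 from all other groups. It was below background in M3-2, at 6.38 and 6.40, and read 9.37 and 9.35 in M3-1 and 9.24 and 8.93 in the primary tumour derivative, so it fell in M3-2 while M3-1 stood above parental cells. The difference between the lines was -2.97 ± 0.17 (adjusted p = 1.845e-07). TUBB2B went the same way, with 9.73 and 9.75 in M3-2 and 11.36 and 11.34 in M3-1 around the parental 10.88 and 10.61. STOM, a membrane protein of lipid rafts, NOS3, the endothelial nitric oxide synthase, PNMA2 and ADA2 fell in both lines and further in M3-2, by 1.19, 1.05, 1.02 and 0.97. MAGEC2, a cancer-testis antigen, rose in both but less in M3-2, with 7.47 and 7.45 against 9.48 and 9.49. IGFBP3 and the alpha-globin genes fell less in M3-2 than in M3-1. IGFBP3 was 1.21 higher in M3-2 than in M3-1, HBA2 1.52 and HBA1 0.88, and HGF, which read 8.997 and 8.74 in M3-2 and 7.82 and 7.80 in M3-1, was 1.06 higher.

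**Figure D5:**
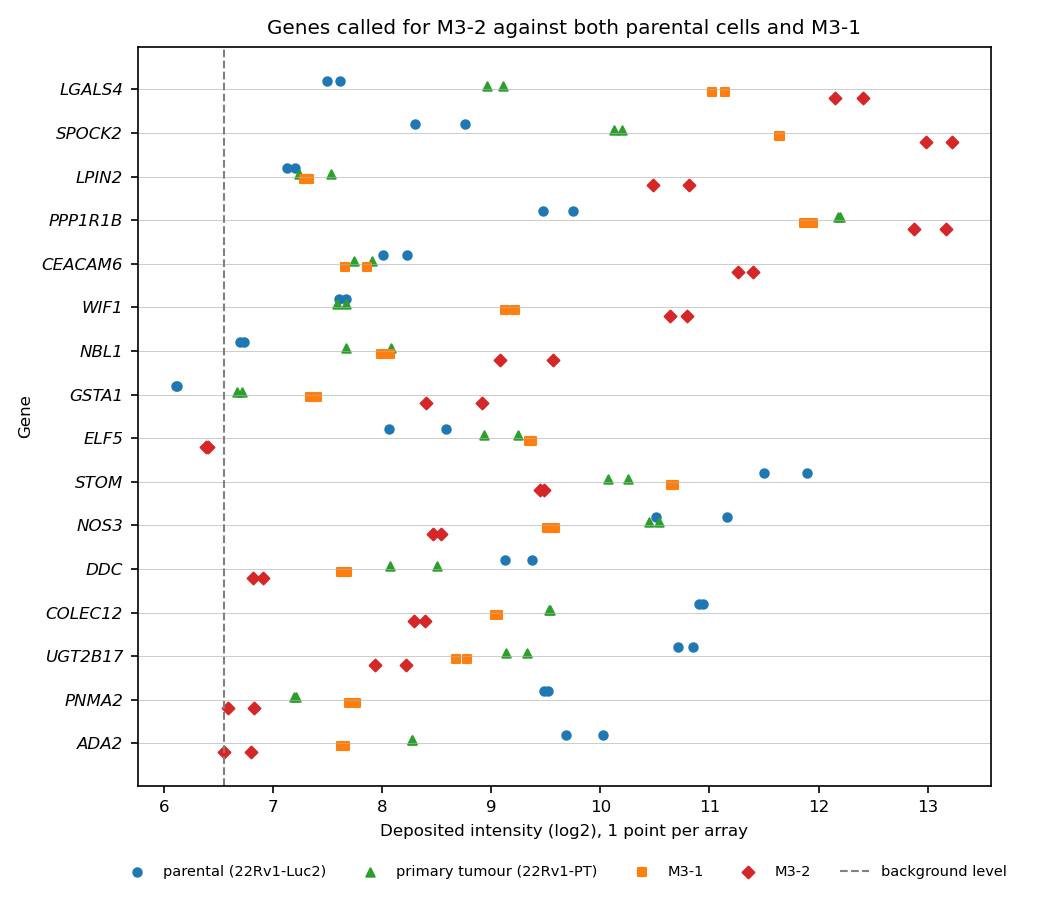
Deposited log2 intensity (horizontal axis) of the 8 genes with the largest rise and the 8 with the largest fall from parental cells that were also called in the same direction against M3-1 (vertical axis), 1 point per array for the 4 groups, with the background level of 6.55 dashed. LPIN2 and CEACAM6 are high on the M3-2 arrays alone among the 8 arrays, and ELF5 is at background on the M3-2 arrays alone.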

How the data were processed

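Gene expression was measured on 8 single-colour Illumina bead arrays hybridised with biotin-labelled cRNA, per the labels' protocols. The deposited table holds log2 intensities of 47320 probes, and how the authors corrected and normalized them was not given in the sources used here. Its arrays share 1 distribution, since values at any rank differed by at most 0.012, and no background was subtracted down to 0 (lowest value 5.32, median 6.40, highest 15.1), which understates folds of dim genes. A second table, with 16 columns of per-sample values that match no labels, was not used.

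The background mode was 6.12 with an SD of 0.184 estimated below it, and a probe had to exceed 6.55 (the upper 0.01 point of that background) on at least 2 arrays. Gene names came from GEO's platform annotation (30112 with 1 gene symbol, 8 with several, 17200 with none), and the brightest probe stood for a gene, which left 12244 genes. The 8 arrays entered 1 limma fit (version 3.58.1, R 4.3.3) with a mean per group (lmFit, eBayes, 4 residual degrees of freedom and 9.35 from the prior), with Benjamini-Hochberg adjustment over all genes and calls at an adjusted p below 0.05. The test was tried on simulated arrays first. A gene that no array of a group shows above 6.55 has only a bound there, and its fold is given as at least a value computed against that level. Errors are standard errors of the fit. The number of arrays limits the precision.

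Named genes were, in each direction, the 14 called genes of largest change with non-overlapping arrays and no provisional symbol and the 8 also called against M3-1, then up to 5 called members of each list, then a set of prostate genes named whatever their values. The 49 lists hold 1222 symbols, 1138 on the array and 815 tested. The members and lists were chosen with earlier results of these data known, so their counts and medians are descriptions. Of 58 named genes with several probes above background, all probes moved in 1 direction in 57, CDKN2D being the exception. Alternatives were no filter or a mean above 7, other ways of joining probes, a fit to the arrays compared, median centring, cyclic loess, limma-trend, array weights, a replicate block, leaving out each array, a threshold of 0.01 and a test against a log2 difference of 0.5.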

Additional observations from a re-analysis of the deposited data

Results flagged for a closer look

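M3-2 and M3-1 departed from parental cells by different amounts in 52 of the 192 genes named, by the direct difference between the lines (limma, adjusted p below 0.05 over all genes). Of all genes tested 2.47% were called in this comparison. The naming rule took 16 genes because they were called in it, so the count of 52 is only a description. M3-2 was higher than M3-1 in 32 of the 52 and lower in 20. Differences below are M3-2 minus M3-1 on the log2 scale, and both lines share the parental arrays.

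Genes that rose in M3-2 and were not called for M3-1 included CEACAM6 (3.57), LPIN2 (3.34), REG4 (2.28), SPINK4 (1.91) and S100A6 (1.54). FABP7 (1.50), KRT19 (1.39), SERPINB5 (1.36), KLF4 (1.08) and MSMB (0.98) did the same. Smaller differences of this kind were found for IER3 (0.89), DUSP1 (0.86), KRT8 (0.71), KLF5 (0.71), CYP1B1 (0.67), CYP4X1 (0.67) and ELF3 (0.63). The CYP1B1 call against parental cells was lost in 13 of 19 alternative settings, 7 of them with 1 array left out. AGR2 (2.19) rose in M3-2 and fell in M3-1.

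Genes that rose in both lines and further in M3-2 were KCNG1 (1.55), WIF1 (1.55), SPOCK2 (1.46), NBL1 (1.29), GSTA1 (1.29), LGALS4 (1.20), PPP1R1B (1.11) and SERPINE2 (1.11). Those that rose in both and less in M3-2 were MAGEC2 (-2.03), the interferon-induced surface protein BST2 (-0.91), ACSL1 (-0.90) and CP (-0.58), which encodes ceruloplasmin. The genes that fell in both lines and less in M3-2 were HBA2 (1.52), IGFBP3 (1.21), HGF (1.06), HBA1 (0.88), CHGB (0.80) and PMEPA1 (0.70).

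ELF5 (-2.97) and TUBB2B (-1.61) fell in M3-2 and rose in M3-1. STOM (-1.19), NOS3 (-1.05), PNMA2 (-1.02), ADA2 (-0.97), DDC (-0.79), COLEC12 (-0.71), UGT2B17 (-0.65) and CTSH (-0.61) fell in both and further in M3-2. BMP2 (-0.84), CA12 (-0.74), the interferon-induced IFITM2 (-0.70), ACTA2 (-0.64), ALB (-0.61) and the receptor FGFR3 (-0.57) fell in M3-2 and were not called for M3-1. The IFITM2 call against parental cells was lost without M3-2 replicate 1, that of ACTA2 without parental replicate 1 or M3-2 replicate 1, and that of ALB without parental replicate 2 or either M3-2 array.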

How the results depend on the processing

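Of 192 genes named by the rule 184 were called, and 147 of these stayed called in each alternative other than the test against a minimum log2 difference of 0.5. Apart from the set named whatever its values, genes were named because they were called. The number 184 thus largely follows from the rule, while 12.2% of all genes tested were called. Of the 184, 149 stayed called when any 1 array was left out. The count of 1496 genes was 996 when the fit used the 4 arrays compared, 908 at an adjusted p below 0.01 and 354 against a difference of 0.5, and 929 to 2002 with single arrays left out, where the lone sample is assumed to vary like the other groups. Higher genes, 723, numbered 467, 432 and 168 in those settings and 478 with array weights, and 435 to 921 with single arrays left out. Lower genes, 773, numbered 476 at the stricter threshold and 186 against 0.5, and 494 to 1081 with single arrays left out. The count at least 2-fold, 365, ranged from 348 to 394 with single arrays left out. Against M3-1 the count of 302 was 481 with the arrays compared, 548 with array weights, 164 at the stricter threshold and 49 against 0.5, and 94 to 492 with single arrays left out. Against the primary tumour derivative the 1132 genes became 569 and 163, and 518 to 1843. Directions reversed for IGF1 (0.2224 without a filter, from another probe), for KLK2 (-0.0063 without parental replicate 1, and -0.0919 to 0.1164 over all left-out arrays) and for MKI67 (-0.1914 to 0.0188, the highest without M3-2 replicate 1). KLK2 and MKI67 were not called in these settings. Array weights also reduced the count of 1496 genes to 1016 and that of lower genes from 773 to 538. With only the 4 arrays compared, 529 genes were lower. Both directions thus lost calls in these 2 settings. The cause of these shifts was not tested.

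Arrays of the same replicate number correlated in their deviations from the group means at 0.523 for parental cells with the primary tumour derivative, and for M3-2 at 0.141 with the parental and 0.173 with the primary tumour arrays. The correlations of M3-1 with these groups were -0.181 with parental cells, -0.137 with the primary tumour derivative and -0.020 with M3-2, so the numbers are not shown to pair arrays. With the replicate number as a block the counts were 1737 against parental cells, 389 against M3-1 and 1439 against the primary tumour derivative. Median centring and cyclic loess, applied to arrays that already share a common distribution, moved the median of all genes to -0.0030 and 0.0028. Levels near 6.55 give bounds, and folds of dim genes are understated.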

Other observations

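On the X chromosome, 10 of 30 tested genes in the run from PRICKLE3 to FAM120C were lower in M3-2 than in parental cells and 0 higher. Over the X chromosome as a whole 8.39% of genes were lower and 4.42% higher, against 6.31% and 5.9% of all genes. The median of the run was -0.23 in M3-2, -0.18 in M3-1 and -0.15 in the primary tumour derivative, against the same parental arrays. In the run 10 genes were lower in M3-1 and 7 in the primary tumour derivative. The run holds GAGE12 cancer-testis genes, which are nearly identical in sequence, so their probes may share signal. GAGE4, another family member, fell by 1.21 ± 0.12. On chromosome 4, 8.09% of genes tested were higher and 6.97% lower. Its run from SNORD73A to ANP32CP had 7 of 30 genes higher and 1 lower, with a median of 0.25. GASK1B led it at 1.15, and GUCY1A1, a subunit of the nitric oxide receptor, followed at 0.93. Both runs and the genes named in them were chosen after the data were seen.

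Of 19 tested genes of metallothioneins, small proteins that bind zinc and copper, and of metal transport, 4 were higher (21.1%) and 2 lower (10.5%), with a median of 0.02, and 1 was lower when any array other than parental replicate 2 was left out. MT1G stood at 11.73 and 11.54 in parental cells and 12.60 and 12.60 in M3-2 (0.97 ± 0.12), MT1H was higher by 0.85 ± 0.13, and MT1X and MT1F did not pass, at 0.02 and -0.01. Their sequences are close to each other. Among potassium channel genes, KCNMB4, a subunit of calcium-activated channels, fell by 1.41 ± 0.13 and KCNS3, a modifier subunit, was at least 2.38-fold lower, beside the rises of KCNJ8 and KCNG1. ALB, which encodes albumin, was among the brightest genes on these arrays, at 13.52 and 13.84 in parental cells and 13.15 and 13.09 in M3-2 (-0.56 ± 0.14, adjusted p = 0.0172), while the liver genes APOB, FGB and SERPINA1 were at background on all 8 arrays. Its call was lost in 7 of 19 alternative settings.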
